A study of Mus musculus with 16 samples.

Results

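Mammalian cells take up iron, reduce it, store it, export it and, during infection, hide it from microbes, and the 10 genes described here serve these tasks in mouse cells. Lcn2 sequesters iron, Steap4 and Steap3 reduce it, Tfrc and Slc11a2 bring it in, Fth1 and Ftl1 store it, Slc40a1 lets it out, and Aco1 and Ireb2 regulate the messenger RNAs of several of the others. They are 10 of the 56941 genes in the table, and 38131 genes of that table had any count. The 10 were selected on their function and on their differences between the 4 conditions of these same libraries, so their levels and differences are a description and no test is drawn from them.

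The study asked how a saturated fatty acid and an inflammatory cytokine, alone and together, act on primary murine gingival fibroblasts (mGF), the main cells of the connective tissue of the gum. The cells grew out of gingival explants taken around the maxillary second molar of wild-type (WT) C57Bl6 mice aged 3 to 6 months. They were kept in medium with 20% fetal bovine serum and used between passages 2 and 8. RNA was sequenced in bulk from 16 libraries, 4 in each of 4 conditions.

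By the labels and methods, each condition lasted 24 h. BSA (control), replicates 1 to 4, received the albumin vehicle at 200 µM. IL-1β, replicates 5 to 8, received the recombinant mouse cytokine at 1 ng/mL with the same vehicle. Palmitate, replicates 9 to 12, received 200 µM of the fatty acid complexed to BSA, and palmitate + IL-1β, replicates 13 to 16, received both agents at these doses. Nothing in the labels says whether replicates were separate cultures or animals, so p-values measure only the spread between these samples, which may be technical. According to the labels a kit for stranded total RNA was used, whereas the study's methods describe oligo(dT) priming with SMART-Seq, and which was used is not known.

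The labels of the single treatments were checked against genes known to answer each agent, a check added after the data were seen. Of 9 tested genes of fatty acid use and storage, the libraries labelled IL-1β had 7 higher and 0 lower than BSA (control), and those labelled palmitate had 2 higher and 5 lower. Angptl4, a fatty acid target, averaged 4.44 CPM in BSA (control), 100.5 in the libraries labelled IL-1β, 20.7 in those labelled palmitate and 153.8 in those labelled palmitate + IL-1β, and Cpt1a, of fatty acid oxidation, 111.8, 216, 82.4 and 214 CPM in that order. Of 10 genes of IL-1 signalling, each was higher than BSA (control) under both labels, but 8 were higher and 1 lower in the libraries labelled palmitate than in those labelled IL-1β. Cxcl5 averaged 2.98, 29.4, 582 and 629.9 CPM in the same order and Saa3 0.0835, 0.721, 23.2 and 22.9 CPM, while Ptgs2 went the other way at 121, 257, 191 and 384 CPM.

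These values go against the labels of the IL-1β and palmitate libraries, which look as if they were exchanged, and whether they were was not tested. The names are therefore used below only for the libraries labelled so, and no difference of an iron gene is assigned to palmitate or to IL-1β. If the labels were exchanged, the differences of the 10 genes given for palmitate would be those of IL-1β and the reverse, and those between the single treatments would change sign. The differences of palmitate + IL-1β from BSA (control) and the interaction would be the same either way. In the study's own text, IL-1β raised Cxcl1, Cxcl2, Cxcl5, Ccl2 and Il6 greatly and palmitate alone only slightly. Its pathway analysis of palmitate against control lists innate immune activation and chemotaxis. Its lipid staining found a marked build-up with palmitate and none remarkable with IL-1β alone.

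Iron reaches most cells bound to transferrin, which the transferrin receptor carries into endosomes, where a STEAP reductase turns ferric into ferrous iron and a divalent metal transporter moves it to the cytosol. There it is used, stored in ferritin or exported through ferroportin, and iron-regulatory proteins adjust the balance by binding hairpins in messenger RNAs. During inflammation, tissue cells and neutrophils secrete lipocalin 2, which captures bacterial siderophores and so withholds iron from microbes, a defence known at mucosal surfaces such as the gum.

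Levels are given as CPM, counts scaled to the same total, on library sizes scaled by TMM, and levels of different genes are compared only after division by exon length, as per-kb levels scaled to the same total in every library. Counts in genes ran from 21234789 in palmitate replicate 9 to 92752515 in palmitate replicate 10, whereas the other 14 libraries lay between 24376996 and 35329711. At these depths 3 counts correspond to 0.0331 CPM in palmitate replicate 10 and to 0.146 CPM in palmitate replicate 9. Intervals and such floors cover counting error only, since reads copied by PCR are not independent molecules. Each of the 10 genes passed the filter on low counts, Lcn2 only through the conditions labelled with palmitate.

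Markers of the labelled cell type were abundant. The 10 fibroblast markers summed to 31614 to 33513 CPM in BSA (control), 33204 to 33728 in those labelled IL-1β, 29251 to 31331 in those labelled palmitate and 28486 to 30473 in those labelled palmitate + IL-1β, with Col1a1 the most abundant and none at 0. Calls against BSA (control) were made at an edgeR adjusted p under 0.05. In palmitate 1 of these 10 was higher and 5 lower, beside 19.8% and 17.5% of all genes tested. In palmitate + IL-1β 1 was higher and 7 lower, beside 24.8% and 22.5%, and in IL-1β 2 were higher and 1 lower, beside 10.1% and 4.97%. Some fibroblast markers thus differed between the conditions as well. Fewer cells of a type and less RNA per cell cannot be told apart in bulk RNA, and the part of these marker differences in the results was not tested. Mitochondrial transcripts made up 12.2% to 13.4% of counts in BSA (control), 11.4% to 14.0% in those labelled IL-1β, 11.9% to 13.2% in those labelled palmitate and 10.7% to 11.5% in those labelled palmitate + IL-1β, and their part in the results was not tested either.

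Among the 10, the per-kb order in BSA (control) ran from Ftl1 at 1419 through Fth1 at 306, Ireb2 at 53.9, Slc40a1 at 43.6, Aco1 at 26.2, Tfrc at 18.8, Steap3 at 8.31 and Slc11a2 at 6.45 down to Steap4 at 0.678 and Lcn2 at 0.117, means of 4 libraries. Resting cells thus held most of their iron-gene messages in the ferritin subunits, and no neighbours in this order shared a value between libraries. In IL-1β the order was the same save that Tfrc, at a per-kb level of 28.2, stood before Aco1 at 23.0 and Slc11a2, at 11.7, before Steap3 at 6.80. There the libraries of Ireb2 and Slc40a1 overlapped, and so did those of Tfrc and Aco1.

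In the libraries labelled palmitate the order differed below the ferritins. Steap4, ninth in BSA (control), stood next after the ferritins, at a per-kb level of 107 in palmitate and 103 in palmitate + IL-1β, ahead of Ireb2 at 54.6 and 53.8. Lcn2, at 9.79 and 9.00 per kb, left the last place to Steap3 at 6.98 and 5.92. In palmitate Aco1 overlapped both Slc40a1 above it and Slc11a2 below it, which shared no value with each other. The per-kb levels of Slc40a1, Aco1 and Slc11a2 there were 25.9, 25.3 and 24.5, and in palmitate + IL-1β Slc11a2 at 27.5 overlapped Aco1 at 23.6. The order depends on the length used: per kb of the canonical transcript, a scale added after seeing the data, Fth1 stood above Ftl1 in palmitate, at 1353 against 1178, and in palmitate + IL-1β, at 1382 against 1132.

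**Figure D1:**
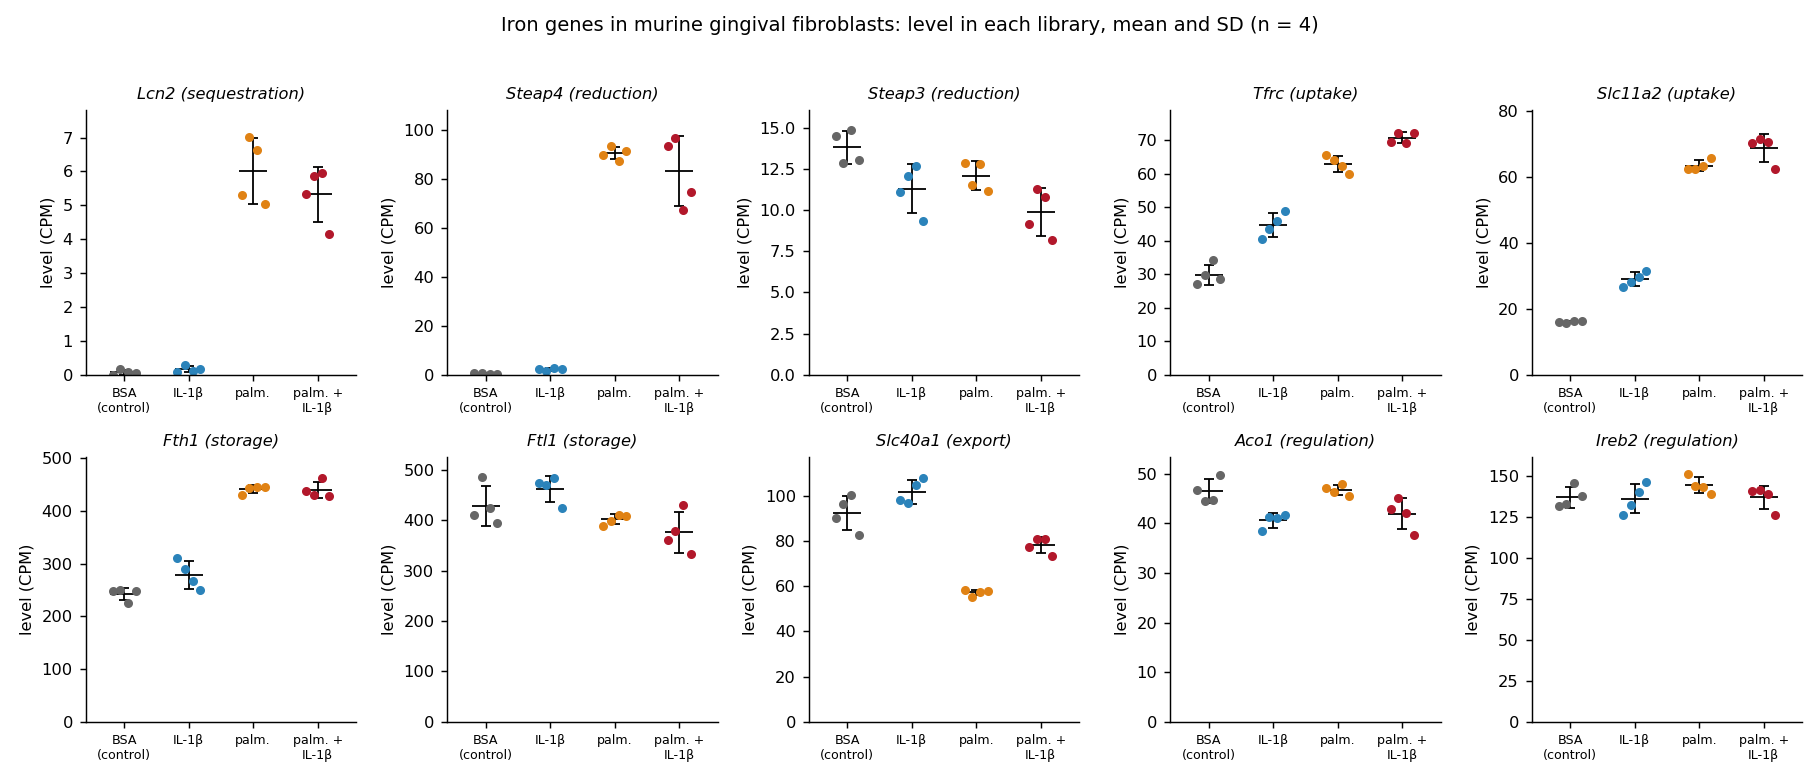
Level of each of the 10 iron genes in CPM (vertical axes starting at 0) by labelled condition, with 1 point per library, a bar at the mean and whiskers of 1 SD (n = 4). Steap4 and Lcn2 were near 0 in BSA (control) and IL-1β, Tfrc and Slc11a2 were higher in IL-1β than in BSA (control) and highest in the conditions labelled with palmitate, and Slc40a1 was lowest in palmitate, at 55.4 to 58.2 CPM.

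Lcn2 (ENSMUSG00000026822.15, GRCm39 chr2:32274645-32278264, minus strand) encodes lipocalin 2, the secreted protein that binds iron-loaded siderophores. Its level was 0, 0.162, 0.0763 and 0.0350 CPM in BSA (control), 0.0818, 0.273, 0.0950 and 0.166 in those labelled IL-1β, 5.30, 7.03, 6.65 and 5.05 in those labelled palmitate and 5.33, 5.86, 5.95 and 4.16 in those labelled palmitate + IL-1β. Every library labelled with palmitate lay above every library not so labelled, while IL-1β and BSA (control) overlapped near the floor. The BSA (control) values rest on 0, 5, 2 and 1 counts and the IL-1β values on 2, 7, 3 and 4 counts, whereas the palmitate libraries held 109 to 638 counts and the palmitate + IL-1β libraries 113 to 188.

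Because so few Lcn2 counts fell in BSA (control), ratios of pooled counts are given with exact conditional 95% intervals. Palmitate exceeded BSA (control) by a Lcn2 ratio of 96.4 (interval 48.8 to 224) and palmitate + IL-1β by 80.1 (40.4 to 186). For IL-1β the Lcn2 ratio was 2.26 with an interval of 0.913 to 6.10, so a difference was not detectable at this depth. The fitted log2 difference of Lcn2 from BSA (control) was 6.43 (SE 0.31) in palmitate, 1.13 (SE 0.70) in IL-1β and 6.24 (SE 0.31) in palmitate + IL-1β. BSA (control) replicate 2 carries 5 of the 8 control counts, and without it these differences came to 7.33, 2.04 and 7.13. Leaving out the deep palmitate replicate 10, which had the highest Lcn2 level, gave 6.32 for palmitate.

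Lcn2 differed between palmitate + IL-1β and palmitate by -0.20 (SE 0.15) on the log2 scale with overlapping libraries, and the ratio of pooled counts was 0.830 with an interval of 0.752 to 0.916, which leaves out 1. That interval covers counting error only, not the spread between libraries. Neutrophils also store lipocalin 2 in granules, and the 11 neutrophil markers together reached at most 0.105 CPM in BSA (control), 0.0818 in those labelled IL-1β, 0.340 in those labelled palmitate and 0.354 in those labelled palmitate + IL-1β. Camp was the most abundant of them in the conditions labelled with palmitate, with at most 11 counts in a library. S100a8 had at most 7 counts in a library, S100a9 and Ly6g at most 1, and Ngp and Retnlg none. The sum averaged 0.0578 CPM in BSA (control) and 0.237 CPM in palmitate, mostly through Camp at 0.00808 and 0.172 CPM, so it was higher alongside Lcn2, and its part in the Lcn2 difference was not tested.

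Steap4 (ENSMUSG00000012428.10, GRCm39 chr5:8010260-8032214, plus strand) encodes a membrane metalloreductase of ferric iron and copper. Its level was 0.681, 0.678, 0.381 and 0.454 CPM in BSA (control), 2.17, 1.41, 2.56 and 2.40 in those labelled IL-1β, 90.0, 93.6, 87.4 and 91.3 in those labelled palmitate and 93.5, 96.8, 67.5 and 74.6 in those labelled palmitate + IL-1β. The 3 steps did not overlap: BSA (control) was lowest, IL-1β lay above it in every library, and both palmitate conditions stood far above IL-1β. Within palmitate + IL-1β, replicates 15 and 16 were lower than replicates 13 and 14, which reached the palmitate range or passed it.

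In pooled counts Steap4 was 164 times as high in palmitate as in BSA (control), with a 95% interval of 129 to 211, and 149 times as high in palmitate + IL-1β (117 to 193). IL-1β gave a Steap4 ratio of 3.85 (2.92 to 5.13). The fitted log2 differences of Steap4 from BSA (control) were 7.33 (SE 0.19), 7.20 (SE 0.19) and 1.94 (SE 0.34) for these conditions. Steap4 and Lcn2 showed the largest differences of the 10 genes, and their order is uncertain, as the Lcn2 interval contains the Steap4 ratio. For Steap4, palmitate + IL-1β was no higher than palmitate, at -0.12 (SE 0.10) with overlapping libraries. The Steap4 ratio of pooled counts between them was 0.912, with an interval of 0.889 to 0.935 that covers counting error only.

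Steap3 (GRCm39 chr1:120118487-120200435, minus strand) encodes the reductase that serves transferrin-bound iron in endosomes, and it did not follow its relative. Its level was 14.5, 12.9, 14.9 and 13.1 CPM in BSA (control), 11.1, 12.1, 12.7 and 9.32 in those labelled IL-1β, 12.9, 11.5, 12.8 and 11.2 in those labelled palmitate and 9.18, 11.3, 10.8 and 8.21 in those labelled palmitate + IL-1β. Values fell in a narrow band from 8.21 to 14.9 CPM, with the BSA (control) libraries at its top, the lowest of them just above the highest palmitate library, and no BSA (control) value shared with palmitate, IL-1β or palmitate + IL-1β. The log2 difference of Steap3 from BSA (control) was -0.20 (SE 0.09) in palmitate, -0.28 (SE 0.09) in IL-1β and -0.48 (SE 0.09) in palmitate + IL-1β. The IL-1β difference passed the adjusted threshold in the fit to all 16 libraries but not without BSA (control) replicate 1 (-0.27), BSA (control) replicate 3 (-0.25), IL-1β replicate 5 (-0.27) or IL-1β replicate 8 (-0.20).

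Tfrc (GRCm39 chr16:32427556-32451612, plus strand) encodes transferrin receptor 1, the entry route of transferrin iron. Its level was 27.1, 29.7, 34.1 and 28.4 CPM in BSA (control), 40.3, 43.6, 46.0 and 48.8 in those labelled IL-1β, 65.4, 64.1, 62.2 and 60.0 in those labelled palmitate and 69.4, 72.1, 69.2 and 72.1 in those labelled palmitate + IL-1β. The 4 conditions formed 4 separate bands, ordered from BSA (control) through IL-1β and palmitate to palmitate + IL-1β with no shared value. Relative to BSA (control), Tfrc was 1.501 times as high in IL-1β, 2.11 times in palmitate and 2.37 times in palmitate + IL-1β. On the log2 scale these were 0.59 (SE 0.06), 1.08 (SE 0.06) and 1.25 (SE 0.06), and the step from palmitate to palmitate + IL-1β was 0.17 (SE 0.06).

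Slc11a2 (GRCm39 chr15:100285776-100322953, minus strand) encodes the divalent metal transporter DMT1, which moves ferrous iron out of the endosome. Its level was 15.9, 15.8, 16.4 and 16.3 CPM in BSA (control), 26.5, 28.2, 29.8 and 31.5 in those labelled IL-1β, 62.4, 62.3, 63.4 and 65.9 in those labelled palmitate and 70.3, 71.7, 70.7 and 62.4 in those labelled palmitate + IL-1β. BSA (control) was the tightest and lowest band, IL-1β lay above it, and the palmitate conditions lay above both and overlapped each other only through replicate 16 of palmitate + IL-1β. Slc11a2 was 1.80 times its BSA (control) level in IL-1β, 3.94 times in palmitate and 4.28 times in palmitate + IL-1β. The corresponding log2 differences were 0.85 (SE 0.06), 1.98 (SE 0.06) and 2.10 (SE 0.06). Both entry genes were therefore higher in each treated condition, Slc11a2 by more than Tfrc.

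Fth1 (GRCm39 chr19:9957911-9962462, plus strand) encodes the ferritin heavy chain, the subunit with ferroxidase activity. Its level was 248, 251, 226 and 248 CPM in BSA (control), 311, 290.4, 267 and 249.8 in those labelled IL-1β, 431, 445, 446 and 447 in those labelled palmitate and 439, 430.3, 463 and 429 in those labelled palmitate + IL-1β. All libraries labelled with palmitate stood above all others, the palmitate conditions overlapped each other, and IL-1β overlapped BSA (control) through replicate 8. Fth1 was 1.82 times its BSA (control) level in palmitate, 0.86 (SE 0.05) on the log2 scale, and the same difference was 0.86 (SE 0.05) in palmitate + IL-1β. In IL-1β the Fth1 difference was 0.20 (SE 0.05).

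Ftl1 (GRCm39 chr7:45107367-45109308, minus strand) encodes the ferritin light chain, which helps the iron core form. Its level was 409.8, 485, 425 and 394 CPM in BSA (control), 473, 469, 483 and 424 in those labelled IL-1β, 389, 399, 411 and 408 in those labelled palmitate and 361, 378, 431 and 334 in those labelled palmitate + IL-1β. These ranges overlapped in every pair except palmitate against IL-1β, where all palmitate libraries were lower. The log2 difference of Ftl1 from BSA (control) was -0.09 (SE 0.07) in palmitate, 0.11 (SE 0.07) in IL-1β and -0.19 (SE 0.07) in palmitate + IL-1β, and palmitate differed from IL-1β by -0.20 (SE 0.07). Over 95.9% of its canonical transcript, Ftl1 shares at least 95% of its letters with 7 other loci, so uniquely placed reads may undercount it. Ferritin pseudogenes stayed at or below a mean of 2.58 CPM in each condition.

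The Ftl1 differences near the threshold turned on single libraries. That of palmitate + IL-1β from BSA (control) passed with all 16 libraries but not without BSA (control) replicate 2 (-0.14), BSA (control) replicate 3 (-0.19), palmitate + IL-1β replicate 13 (-0.18) or palmitate + IL-1β replicate 16 (-0.13). That of palmitate from IL-1β was lost without IL-1β replicate 5 (-0.19), IL-1β replicate 6 (-0.20), IL-1β replicate 7 (-0.19), palmitate replicate 9 (-0.19) or palmitate replicate 10 (-0.20). Because Fth1 was higher in palmitate and Ftl1 was not, the balance of the subunit messages shifted. The per-kb ratio of Fth1 to Ftl1 was 0.217 ± 0.0206 in BSA (control), 0.230 ± 0.0168 in those labelled IL-1β, 0.419 ± 0.00483 in those labelled palmitate and 0.449 ± 0.0348 in those labelled palmitate + IL-1β (mean ± SD, n = 4). The ratio in every library labelled with palmitate, from 0.409 upward, exceeded that in every other library, up to 0.250. Per kb of the canonical transcript the mean ratio was 0.595, 0.630, 1.15 and 1.23 in the same order, so which subunit stands higher in the libraries labelled palmitate depends on the length used, while their higher ratio does not.

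Slc40a1 (GRCm39 chr1:45947211-45965683, minus strand) encodes ferroportin, the cellular iron exporter. Its level was 90.2, 96.5, 100.3 and 82.8 CPM in BSA (control), 98.2, 96.8, 105 and 108 in those labelled IL-1β, 58.2, 55.4, 57.5 and 58.0 in those labelled palmitate and 77.4, 81.2, 81.03 and 73.6 in those labelled palmitate + IL-1β. It was the gene of the 10 with the lowest palmitate band relative to control: palmitate lay below every other condition, palmitate + IL-1β stood between, and BSA (control) and IL-1β overlapped at the top. Slc40a1 in palmitate was 0.619 times its BSA (control) level, -0.69 (SE 0.05) on the log2 scale. In palmitate + IL-1β the difference from BSA (control) was -0.24 (SE 0.05), and in IL-1β it was 0.14 (SE 0.05). The latter missed the threshold with all 16 libraries and passed it without BSA (control) replicate 3 (0.18), IL-1β replicate 6 (0.17) or palmitate + IL-1β replicate 16 (0.14). The exporter message was thus higher in palmitate + IL-1β than in palmitate, by 0.45 (SE 0.05), with no shared value between the 2 conditions.

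**Figure D2:**
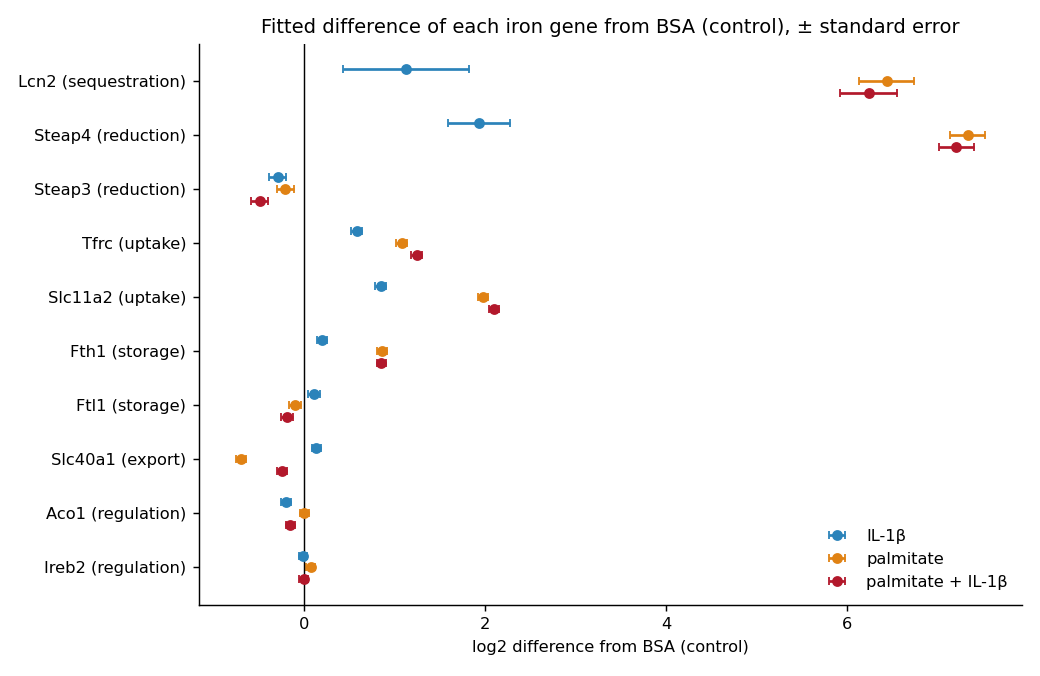
Fitted log2 difference from BSA (control) (horizontal axis) for each of the 10 iron genes (vertical axis, by role), with points for IL-1β, palmitate and palmitate + IL-1β and bars of 1 standard error. Steap4 and Lcn2 lie farthest to the right in palmitate, at 7.33 and 6.43, and Slc40a1 farthest to the left, at -0.69.

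Aco1 and Ireb2 encode iron-regulatory proteins 1 and 2, which bind hairpins in iron-gene messages when iron is scarce, and Aco1 also serves as the cytosolic aconitase when it holds an iron-sulphur cluster. Aco1 (GRCm39 chr4:40142998-40199010, plus strand) stood at 46.7, 44.6, 44.8 and 49.8 CPM in BSA (control), 38.4, 41.4, 41.2 and 41.6 in those labelled IL-1β, 47.1, 46.3, 48.0 and 45.5 in those labelled palmitate and 42.9, 45.1, 42.1 and 37.6 in those labelled palmitate + IL-1β. The IL-1β libraries were all below those of BSA (control) and of palmitate, while palmitate and BSA (control) overlapped. Its log2 difference from BSA (control) was -0.19 (SE 0.05) in IL-1β, 0.01 (SE 0.05) in palmitate and -0.15 (SE 0.05) in palmitate + IL-1β. Without BSA (control) replicate 4 the IL-1β difference (-0.16) and the palmitate + IL-1β difference (-0.11) missed the threshold, and the latter also did without palmitate + IL-1β replicate 16 (-0.10). Under upper-quartile normalization the palmitate + IL-1β difference was larger, at -0.23.

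Ireb2 (GRCm39 chr9:54770970-54820011, plus strand) was the steadiest of the 10. Its level was 132, 133, 146 and 137 CPM in BSA (control), 126, 132, 140.1 and 146 in those labelled IL-1β, 151, 144, 143 and 139 in those labelled palmitate and 141, 141, 139 and 126 in those labelled palmitate + IL-1β. Every condition overlapped every other, and none of its 6 differences passed the threshold. The log2 difference of Ireb2 from BSA (control) was 0.08 (SE 0.05) in palmitate, -0.01 (SE 0.05) in IL-1β and 0.00 (SE 0.05) in palmitate + IL-1β. A difference that misses the threshold does not show that the levels were equal.

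Set side by side by comparison, the members divided as follows, with the share of all 16306 genes tested given only as background, since the members were listed with these comparisons known. Genes were called at an adjusted p under 0.05 in the edgeR quasi-likelihood test. Between palmitate and BSA (control), 5 members were called higher and 1 lower, 6 in all, beside 19.8%, 17.5% and 37.3% of all genes, and 7 members had no overlap between the libraries, beside 36.0% of all genes. With 4 libraries against 4, chance alone gives no overlap in 2.86% of genes. Lcn2 is among the 5 although it passed the filter only through the palmitate conditions, and where at least 10 counts were asked of every library it was not tested and 4 members were higher. The members higher in palmitate were the sequestration, entry and heavy-chain genes with Steap4, and the one lower was the exporter. The median log2 difference of the 10 members was 0.47, beside -0.003 over all genes.

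Between IL-1β and BSA (control), 4 members were called higher and 2 lower, 6 in all, beside 10.1%, 4.97% and 15.1% of all genes, and 5 members did not overlap, beside 17.6% of all genes. Steap4, Tfrc, Slc11a2 and Fth1 made up the higher members, with smaller differences than in palmitate, and Steap3 and Aco1 the lower ones. The count of 2 lower members was 1 without BSA (control) replicate 1, 3 or 4 or without IL-1β replicate 5 or 8. The member median was 0.17, beside -0.005 over all genes. Between palmitate + IL-1β and BSA (control), 5 members were higher and 4 lower, 9 in all, beside 24.8%, 22.5% and 47.3% of all genes, and 7 did not overlap, beside 41.5% of all genes. Lcn2 is again among the 5, and with at least 10 counts asked of every library it was not tested, 4 members were higher and 8 were called. Steap3, Ftl1, Slc40a1 and Aco1 were on the lower side in the main fit, and the member median was 0.43, beside 0.002 over all genes. The count of 4 lower members was 2 without palmitate + IL-1β replicate 16.

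Between palmitate + IL-1β and IL-1β, 5 members were higher and 2 lower, 7 in all, beside 18.9%, 16.1% and 35.0% of all genes, with 6 not overlapping beside 31.3%, and a median of 0.35 beside 0.007. Lcn2 is among the 5, and with at least 10 counts asked of every library it was not tested, 4 members were higher and 6 were called. In the main fit Lcn2 differed between these conditions by 5.10 (SE 0.28), Steap4 by 5.27 (SE 0.16), Slc11a2 by 1.25 (SE 0.05), Tfrc by 0.66 (SE 0.06), Fth1 by 0.66 (SE 0.05), Slc40a1 by -0.38 (SE 0.05) and Ftl1 by -0.30 (SE 0.07). These are the genes that also differed most between palmitate and BSA (control), apart from Ftl1. Between palmitate and IL-1β, whose labels are in doubt, 6 members were higher and 2 lower, 8 in all, beside 16.5%, 15.2% and 31.6% of all genes, with 8 not overlapping beside 31.1%, and a median of 0.35 beside -0.001. Lcn2 is among the 6, and with at least 10 counts asked of every library it was not tested, 5 members were higher and 7 were called. In that comparison Lcn2 was higher by 5.30 (SE 0.27), Steap4 by 5.39 (SE 0.16), Slc11a2 by 1.13 (SE 0.05) and Tfrc by 0.49 (SE 0.06), while Slc40a1 stood at -0.83 (SE 0.05). All these comparisons share libraries with one another, so their members' values are not independent.

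Between palmitate + IL-1β and palmitate, 1 member was called higher and 0 lower, 1 in all, beside 5.71%, 4.10% and 9.81% of all genes, with 3 members not overlapping, beside 16.7%. The member median was -0.09, beside 0.007 over all genes, and Slc40a1 was the member called. At an unadjusted p under 0.05, edgeR gave 3 members higher and 2 lower and DESeq2 also 3 and 2. DESeq2 called 1 higher and 1 lower after adjustment. The count of 1 member rose to 2 without BSA (control) replicate 1, IL-1β replicate 5, palmitate + IL-1β replicate 15 or palmitate + IL-1β replicate 16, and to 3 without BSA (control) replicate 3, IL-1β replicate 8 or palmitate + IL-1β replicate 14. Tfrc joined it without BSA (control) replicate 1 (0.16), BSA (control) replicate 3, IL-1β replicate 5 or IL-1β replicate 8 (each 0.17), and Slc11a2 without palmitate + IL-1β replicate 16 (0.16). Steap3 joined it without IL-1β replicate 8 (-0.28), palmitate + IL-1β replicate 14 (-0.35) or palmitate + IL-1β replicate 15 (-0.33), and Aco1 without BSA (control) replicate 3 (-0.15) or palmitate + IL-1β replicate 14 (-0.19).

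The split of all genes into higher and lower depended on the scaling. Upper-quartile normalization moved the share of called genes that were higher from 53.1% to 37.1% for palmitate, from 67.1% to 43.5% for IL-1β and from 52.4% to 38.7% for palmitate + IL-1β, each against BSA (control). It moved that share from 54.0% to 45.5% between palmitate + IL-1β and IL-1β, from 52.1% to 45.5% between palmitate and IL-1β and from 58.2% to 52.4% between palmitate + IL-1β and palmitate. For palmitate it gave 5 members higher and 2 lower, Steap3 (-0.27) joining Slc40a1 on the lower side. For IL-1β the members stood at 4 higher and 2 lower and for palmitate + IL-1β at 5 higher and 4 lower, the counts of the TMM fit.

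The interaction is the log2 difference of palmitate + IL-1β from IL-1β minus that of palmitate from BSA (control), and it has the same value if the single labels are exchanged. It passed the threshold for 4 members, 1 positive and 3 negative, beside 0.159%, 1.83% and, in either direction, 1.99% of all genes, so most interactions called anywhere were negative, and the median over the 10 members was -0.21, beside -0.002. For Steap4 the interaction was -2.06 (SE 0.35), for Slc11a2 -0.73 (SE 0.08) and for Tfrc -0.42 (SE 0.08). In these 3 genes IL-1β was higher than BSA (control), and the step from IL-1β to palmitate + IL-1β was smaller than that from BSA (control) to palmitate: 5.27 against 7.33 for Steap4, 1.25 against 1.98 for Slc11a2 and 0.66 against 1.08 for Tfrc. The libraries of palmitate and palmitate + IL-1β overlapped for Steap4 and Slc11a2 but not for Tfrc. Slc40a1 had an interaction of 0.31 (SE 0.07), the step being -0.38 from IL-1β to palmitate + IL-1β and -0.69 from BSA (control) to palmitate. Lcn2, with an interaction of -1.33 (SE 0.71), missed the threshold, and without BSA (control) replicate 2 its interaction was -2.24. Fth1, with -0.21 (SE 0.07), missed it too, but passed it without IL-1β replicate 8 (-0.26).

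Iron-regulatory proteins bind a hairpin whose loop reads CAGTGN above a stem of 5 paired bases, with an unpaired C before the stem. A search for this form found it in 4 of the 10 genes, in the 3′ UTR of Tfrc and in the 5′ UTRs of Fth1, Ftl1 and Slc40a1. Among 21667 canonical transcripts, 0.111% held the form in the 5′ UTR and 0.577% in the 3′ UTR. The 27-base matches are printed because Tfrc, the ferritin genes and Slc40a1 share this form although their levels moved apart: Tfrc and Fth1 were higher in palmitate, Slc40a1 was lower, and Ftl1 missed the threshold. Capitals mark the loop, and each is read 5′ to 3′ on the strand of its gene.
Tfrc a: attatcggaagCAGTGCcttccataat
Tfrc b: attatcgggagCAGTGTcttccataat
Tfrc c: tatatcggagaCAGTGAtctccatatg
Tfrc d: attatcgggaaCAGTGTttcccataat
Fth1: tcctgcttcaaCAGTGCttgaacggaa
Ftl1: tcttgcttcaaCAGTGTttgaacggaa
Slc40a1: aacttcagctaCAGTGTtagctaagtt
The 4 Tfrc hairpins lie in GRCm39 at chr16:32450038-32450064, chr16:32450417-32450443, chr16:32450482-32450508 and chr16:32450529-32450555 on the plus strand, that of Fth1 at chr19:9960097-9960123 on the plus strand, that of Ftl1 at chr7:45109204-45109230 on the minus strand and that of Slc40a1 at chr1:45964626-45964652 on the minus strand. Hairpins in a 3′ UTR are known to steady the message when bound and those in a 5′ UTR to hold back its translation, which RNA levels do not show. For the other 6 genes, the search says only that this exact form was not found in their annotated transcripts, and hairpins of other forms were not sought.

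Promoters were read from the RefSeq table (GRCm38.p6), which held 13 windows for 8 of the 10 genes, each from 250 bases before to 50 bases after a start and each located in GRCm39 by exact match. Slc11a2 and Slc40a1 had no entry. Over 32544 windows and both strands, 8.49% held the kappaB consensus, 10.8% the C/EBP core TTGCNNAA, 7.79% the AP-1 motif TGANTCA and 12.4% the antioxidant response core TGACNNNGC. None of the 13 member windows held the AP-1 motif or the antioxidant response core. Lcn2 and Steap4 each held a C/EBP core, TTGCTCAA at -216 in Lcn2 and TTGCGAAA at -87 in Steap4. Steap4 also held the kappaB consensus at -250, read on both strands, and at -226 on the minus strand. The stretches of these windows that precede the start of the GENCODE canonical transcript are printed to show these letters, which are in capitals and do not overlap.
Lcn2: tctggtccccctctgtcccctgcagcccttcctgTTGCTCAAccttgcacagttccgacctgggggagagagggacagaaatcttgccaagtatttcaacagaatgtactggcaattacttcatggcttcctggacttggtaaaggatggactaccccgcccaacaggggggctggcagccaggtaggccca
Steap4: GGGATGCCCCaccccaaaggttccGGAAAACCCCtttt
They lie in GRCm39 at chr2:32277810-32278001 on the minus strand and chr5:8010222-8010259 on the plus strand. The RefSeq starts lie 58 and 212 bases downstream of the GENCODE starts. The C/EBP core of Steap4 therefore lies after the GENCODE start and outside the printed stretch. Elsewhere, 1 of 4 Steap3 windows held a kappaB match at -176 and a C/EBP core at -223, 1 of 2 Fth1 windows held C/EBP cores at -129 and -58, and the Ftl1 window a kappaB match at -15. Steap3 and Ftl1 hold kappaB letters too, although neither was higher in palmitate. Steap3 also holds a C/EBP core, and neither Tfrc window holds either motif although Tfrc was higher in palmitate. A match is a description and not a binding site.

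Members that were higher in palmitate correlated closely across the 16 libraries. A high r follows from their shared steps between conditions, so it says nothing about coordination within a condition. Pearson r of log2 CPM was 0.982 for Steap4 and Slc11a2, 0.981 for Tfrc and Slc11a2, 0.975 for Lcn2 and Steap4 and 0.978 for Steap4 and Fth1, over n = 16 libraries that form 4 treatment groups. Slc40a1 ran opposite to them, with r of -0.795 to Fth1, -0.794 to Lcn2 and -0.779 to Steap4, and less closely to the entry genes, -0.687 to Slc11a2 and -0.584 to Tfrc. Aco1 and Steap4 were nearly unrelated, at r of 0.00232.

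Genes with the most similar profile were sought for the 4 members that differed by more than 1 on the log2 scale between some conditions. For Lcn2 they were Trdc (0.992), Fam20c (0.987) and Dhx40 (0.987), with r over 16 libraries in parentheses. For Steap4 they were Gbp9 (0.997), Cx3cl1 (0.995) and Cd44 (0.994), for Tfrc Tyk2 (0.994), Gm16098 (0.993) and Il1rl1 (0.993) and for Slc11a2 Znrf1 (0.997), Cxcl5 (0.996) and Vcam1 (0.996). Gbp9, nearest to Steap4, averaged 0.934 CPM in BSA (control), 2.82 in those labelled IL-1β, 56.0 in those labelled palmitate and 55.4 in those labelled palmitate + IL-1β, the same low, intermediate and high steps as Steap4. Cxcl5, close to Slc11a2, is among the genes of IL-1 signalling whose levels go against the labels, and spanned 2.98 to 629.9 CPM where Slc11a2 spanned 16.1 to 68.8 CPM.

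Of 80 other genes of iron handling listed by function, 73 were tested, and the untested were Ftmt, Hephl1, Hamp, Hjv, Tmprss6, Hp and Fdx2. In palmitate against BSA (control), 20 rose and 12 fell, 27.4% and 16.4% of the 73, beside 19.8% and 17.5% of all genes, with a median log2 difference of -0.04. Upper-quartile normalization turned this split to 16 higher and 24 lower. By task, 2 rose and 5 fell of 11 genes of reduction and entry, 3 rose and 1 fell of 8 of cytosolic handling, 3 rose and 2 fell of 8 of export and systemic control, 5 rose and 3 fell of 19 of heme, and 7 rose and 1 fell of 27 of mitochondrial iron and iron-sulphur assembly.

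The pathway genes named here had the largest rise and fall in each list among called genes with no overlap between libraries and an average log2 CPM of at least 1. Slc39a14, an importer of iron that is not bound to transferrin, rose in the libraries labelled palmitate by 0.95 (SE 0.06, edgeR adjusted p = 2.18e-14) in all 4 libraries, from 35.5 ± 0.911 to 68.4 ± 2.29 CPM, alongside the entry genes Tfrc and Slc11a2. Slc22a17, described as a receptor of lipocalin 2, went the other way from its ligand Lcn2, -0.60 (SE 0.15, edgeR adjusted p = 0.00179), with all 4 palmitate libraries lower. Bmp6, a ligand that drives hepcidin in the liver, rose by 2.16 (SE 0.14, edgeR adjusted p = 3.29e-14) in all 4 libraries, from 1.56 ± 0.120 to 6.89 ± 0.600 CPM. Hamp, the hepcidin gene whose product closes the exporter encoded by Slc40a1, was too low to be tested.

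Beside the regulators Aco1 and Ireb2, Fbxl5, which directs the product of Ireb2 to degradation when iron is ample, rose in the libraries labelled palmitate by 0.42 (SE 0.04, edgeR adjusted p = 2.85e-09) in all 4 libraries. Bdh2, an enzyme linked to a mammalian siderophore that lipocalin 2 can bind, fell in the libraries labelled palmitate, -0.84 (SE 0.14, edgeR adjusted p = 2.04e-05), with all 4 libraries lower. Neo1, a co-receptor in bone morphogenetic protein signalling, and Abcg2, a heme exporter, were lower in all 4 palmitate libraries too, at -0.24 (SE 0.04, edgeR adjusted p = 5.04e-05) and -0.34 (SE 0.07, edgeR adjusted p = 8.03e-05). Hmox1, which frees iron from heme, rose in the libraries labelled palmitate by 0.89 (SE 0.05, edgeR adjusted p = 2.49e-16) in all 4 libraries, from 438 ± 25.8 to 813 ± 17.4 CPM. Slc25a37, which brings iron into mitochondria, was higher in all 4, at 0.36 (SE 0.07, edgeR adjusted p = 0.000169). Mms19, of cytosolic iron-sulphur assembly, was lower in all 4, at -0.18 (SE 0.06, edgeR adjusted p = 0.0236), and lost the threshold without BSA (control) replicate 1 (-0.15) or palmitate replicate 10 (-0.16). Among genes named after their values were seen, the ferroxidase gene Cp averaged 43.2 CPM in BSA (control) and 85.1 CPM in palmitate, and the ferric reductase gene Cybrd1 0.931 and 0.194 CPM. Cybrd1, which is below that level limit, had a larger fall than Slc22a17, -2.15 (SE 0.34, edgeR adjusted p = 5.46e-06), with all 4 palmitate libraries lower.

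In IL-1β against BSA (control), 7 of the 73 rose and 5 fell, 9.59% and 6.85%, beside 10.1% and 4.97% of all genes, with a median of -0.01. Upper-quartile normalization gave 6 and 9. The count of 5 fell to 2 without BSA (control) replicate 1 or 2 and to 3 without BSA (control) replicate 4, IL-1β replicate 5, IL-1β replicate 7 or IL-1β replicate 8. Hmox1 rose here too, by 1.07 (SE 0.05, edgeR adjusted p = 1.29e-17) in all 4 libraries, from 438 ± 25.8 to 921 ± 44.4 CPM, a larger step than that of any of the members Tfrc, Slc11a2 and Fth1 in IL-1β. Fbxl5 was higher in all 4 libraries, at 0.20 (SE 0.04, edgeR adjusted p = 0.0022). Urod, a heme synthesis enzyme, was lower in all 4, at -0.26 (SE 0.06, edgeR adjusted p = 0.00146). Snx3, which recycles the receptor encoded by Tfrc, was lower in all 4, at -0.15 (SE 0.05, edgeR adjusted p = 0.031), and lost the threshold without BSA (control) replicate 2 (-0.16), BSA (control) replicate 3 (-0.11), IL-1β replicate 5 (-0.12) or IL-1β replicate 6 (-0.15).

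In palmitate + IL-1β against BSA (control), 19 rose and 16 fell, 26.0% and 21.9%, beside 24.8% and 22.5% of all genes, with a median of -0.03, and upper-quartile normalization gave 16 and 25. Hmox1 rose here by 1.88 (SE 0.05, edgeR adjusted p = 1.33e-24) in all 4 libraries, to 1612 ± 88.2 CPM, whereas Tfrc, Slc11a2 and Fth1 stood close to their palmitate levels. Slc39a14 rose by 0.92 (SE 0.06, edgeR adjusted p = 3.2e-14), Bmp6 by 2.19 (SE 0.14, edgeR adjusted p = 1.67e-14) and Slc25a37 by 0.70 (SE 0.07, edgeR adjusted p = 1.02e-09), each in all 4 libraries. Ciao1, of cytosolic iron-sulphur assembly, was lower in all 4, at -0.17 (SE 0.05, edgeR adjusted p = 0.00577), as were Slc22a17 at -0.68 (SE 0.15, edgeR adjusted p = 0.000443) and Bdh2 at -0.73 (SE 0.14, edgeR adjusted p = 0.000105).

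Of the 73, 5 rose between palmitate + IL-1β and palmitate, 6.85% beside 5.71% of all genes, and 0 fell, beside 4.10%, with a median of -0.02. At an unadjusted p under 0.05 edgeR gave 2 lower and DESeq2 also 2, DESeq2 called 0 lower after adjustment, and without palmitate replicate 10 the adjusted edgeR count was 1. Hmox1 rose by 0.99 (SE 0.05, edgeR adjusted p = 5.27e-16), Slc25a37 by 0.34 (SE 0.07, edgeR adjusted p = 0.00111) and Fbxl5 by 0.17 (SE 0.04, edgeR adjusted p = 0.0071), each higher in all 4 libraries. The other 2, named after their values were seen, were the heme exporter Flvcr1 at 0.36 (SE 0.06, edgeR adjusted p = 9.35e-05) and the biliverdin reductase Blvrb at 0.46 (SE 0.07, edgeR adjusted p = 2.55e-05), also higher in all 4. Of the members, the exporter Slc40a1 moved the same way, while Lcn2 and Steap4 did not differ past the threshold.

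Between palmitate + IL-1β and IL-1β, 17 rose and 11 fell, 23.3% and 15.1% beside 18.9% and 16.1% of all genes, and between palmitate and IL-1β 16 rose and 11 fell, 21.9% and 15.1% beside 16.5% and 15.2%. Upper-quartile normalization gave 15 and 13 in the former comparison and 14 and 14 in the latter. Mcoln1, an endolysosomal iron channel, was lower in all 4 palmitate + IL-1β libraries than in IL-1β, at -0.23 (SE 0.06, edgeR adjusted p = 0.00269), the opposite of the endosomal transporter gene Slc11a2. Of genes named in palmitate against IL-1β, the iron chaperone gene Pcbp3 rose by 0.34 (SE 0.08, edgeR adjusted p = 0.00103), the heme transporter gene Slc48a1 by 0.43 (SE 0.04, edgeR adjusted p = 3.16e-09) and Ciao2b by 0.44 (SE 0.09, edgeR adjusted p = 0.00039), each in all 4 libraries. Lower in all 4 palmitate libraries than in IL-1β were Bdh2 at -0.58 (SE 0.15, edgeR adjusted p = 0.00304), Abcg2 at -0.36 (SE 0.07, edgeR adjusted p = 6.29e-05), Neo1 at -0.31 (SE 0.04, edgeR adjusted p = 1.2e-06) and Mcoln1 at -0.29 (SE 0.06, edgeR adjusted p = 0.000299). Of the 19 heme genes, 2 rose and 7 fell in this comparison.

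**Figure D3:**
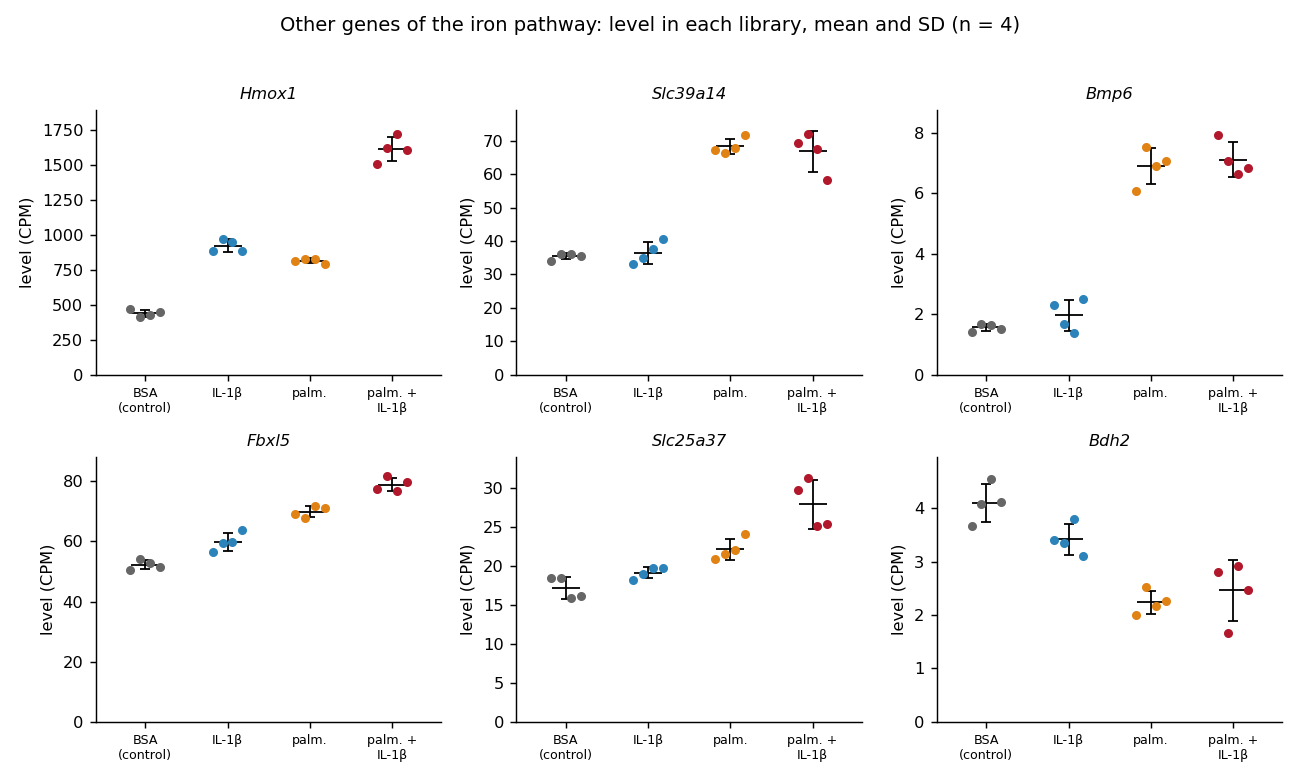
Level in CPM (vertical axes starting at 0) of 6 other iron pathway genes by labelled condition, with 1 point per library, a bar at the mean and whiskers of 1 SD (n = 4). Hmox1 was highest in palmitate + IL-1β, at a mean of 1612 CPM, while Slc39a14 and Bmp6 were high in both palmitate conditions and Bdh2 low.

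Markers of other cells were low. The 12 macrophage markers summed to 3.11 to 4.79 CPM over the 16 libraries, with Csf1r most abundant and Tyrobp at 0, and the 7 endothelial markers to 1.91 to 2.90 CPM, with Cdh5 most abundant, except in IL-1β, where Tek was, and Cldn5 at 0. The 9 erythroid markers, whose cells are rich in Tfrc and ferritin, reached at most 0.549 CPM, with Hbb-bs, Hbb-bt, Hba-a1 and Hba-a2 at 0. Epor was the most abundant of them in BSA (control) and palmitate + IL-1β, and Klf1 in IL-1β and palmitate. The 10 epithelial markers summed to 36.1 to 39.6 CPM in BSA (control), 29.7 to 33.6 in those labelled IL-1β, 25.7 to 28.0 in those labelled palmitate and 22.8 to 24.2 in those labelled palmitate + IL-1β, with Perp most abundant and Krt4 at 0. This sum was lower in the conditions in which Tfrc and Slc11a2 were higher, and its part in the results was not tested.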

How the data were processed

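Gene counts for 16 bulk RNA-seq libraries of mGF were used as deposited. The authors used Trimmomatic 0.39 for trimming, STAR 2.7.10a for alignment to GRCm39 and HTSeq 2.0.9 for counting per gene, so the deposited values are raw counts. Summary lines of unassigned reads, a median of 19.0% per library, were left out. Counts were scaled by TMM, filtered with filterByExpr (10 counts, 15 in total) and tested with the edgeR 4.0.16 quasi-likelihood test (limma 3.58.1, R 4.3.3) with all conditions fitted at once and Benjamini-Hochberg adjustment over all 16306 genes tested. The fit made 6 pairwise contrasts and the interaction, called at an adjusted p under 0.05. It was tested on simulated data. Alternatives were DESeq2 1.42.0, upper-quartile and DESeq2 scaling, other filters, the 8 libraries compared and each library left out. Similarity is Pearson r of log2 CPM with a prior count of 2. Tables and figures were made in Python 3.11.15.

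The named genes were every member, the largest rise and fall per pathway list and contrast among genes called with no overlap and an average log2 CPM of at least 1, and the 3 most similar genes per member differing by over 1. The result of 1 named gene is not reported here. Conditions follow the labels, although the genes checked go against those of palmitate and IL-1β. That check, of 20 genes, was added after the data were seen. Members and lists were chosen with earlier results of these data known.

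Libraries held 21234789 to 92752515 gene counts. Between replicate pairs (24 pairs, genes with at least 20 summed counts) chi-square per degree of freedom was 2.66 to 19.8, above counting error. The biological coefficient of variation was 6.08%.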

Additional observations from a re-analysis of the deposited data

Results flagged for a closer look

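The levels of genes known to answer fatty acids or IL-1 go against the labels of the libraries named palmitate and IL-1β, which look as if they were exchanged, and whether they were was not tested.

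In 6 of 112 groups of 4 libraries (28 named genes in 4 conditions) a single library lay far from the other 3 by Dixon's ratio, which chance gives in about 1 group in 20. Slc11a2 was 62.4 CPM in palmitate + IL-1β replicate 16, against 70.3 to 71.7 CPM in the other libraries. Ireb2 was 126 CPM in the same library, against 139 to 141 CPM. Fth1 was 226 CPM in BSA (control) replicate 3, against 248 to 251 CPM. Fth1 was also low in palmitate replicate 9, at 431 CPM against 445 to 447 CPM. Aco1 was 38.4 CPM in IL-1β replicate 5, against 41.2 to 41.6 CPM. Slc22a17 was 2.04 CPM in palmitate replicate 9, against 2.55 to 2.65 CPM. Slc11a2 and Ireb2 thus share 1 library, and Fth1 and Slc22a17 another, and the cause was not tested.

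For 4 members the interaction of palmitate and IL-1β passed the edgeR threshold adjusted over all genes. Since the members were selected on differences between these conditions, the values are a description and nothing is concluded from them. The log2 difference was -2.06 for Steap4 (adjusted p = 0.00449), -0.42 for Tfrc (adjusted p = 0.00185), -0.73 for Slc11a2 (adjusted p = 4.84e-08) and 0.31 for Slc40a1 (adjusted p = 0.0125).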

How the results depend on the processing

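Of 1522 log2 differences of the members under the alternatives, 1515 stayed within the spread between replicates and none changed sign where called. Those that left it were differences of Lcn2 without BSA (control) replicate 2 and 3 under upper-quartile normalization. The latter were of palmitate + IL-1β from BSA (control), for Slc11a2 (2.02), Aco1 (-0.23) and Ireb2 (-0.08). Against the threshold, 17 member calls were lost and 30 gained, among them Ftl1 between palmitate + IL-1β and BSA (control), lost with only the 8 libraries compared (-0.20), and Steap3 between palmitate and BSA (control), gained without a filter (-0.21) and with only the 8 libraries compared (-0.21). Of 2754 for the named pathway genes, 2698 kept their side of the threshold, 43 lost it and 13 gained it. Members called between palmitate + IL-1β and palmitate, 1 at first, were 2 with DESeq2, 2 with DESeq2 size factors in edgeR, 3 with upper-quartile normalization, 3 without a filter, 3 with at least 10 counts in every library, 4 with only the 8 libraries compared and 1 to 3 when each library was left out. Other iron pathway genes called lower against BSA (control) under upper-quartile normalization went from 12 to 24 for palmitate, from 5 to 9 for IL-1β and from 16 to 25 for palmitate + IL-1β. For IL-1β the count was 3 with only the 8 libraries compared and 2 to 6 when each library was left out. Between palmitate + IL-1β and palmitate it was 0 to 1. With other lengths, members that kept their per-kb place numbered 6 with BSA (control), 5 with IL-1β, 5 with palmitate and 6 with palmitate + IL-1β per kb of the canonical transcript, a scale chosen after seeing the data, and by CPM 8 with BSA (control), 10 with IL-1β, 0 with palmitate and 2 with palmitate + IL-1β, of 10 each. Those places differ because the same counts were divided by other lengths or by none, and the cause of the changed calls was not tested. No paired analysis was possible because no replicate number was shared between conditions. Conditions are named by their labels, and exchange of the palmitate and IL-1β labels would exchange their results. Depth limits Lcn2 in BSA (control) and IL-1β, where libraries held at most 7 counts.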
